A study of Mus musculus with 4 samples.

Results

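The aminoacyl tRNA synthetases, the enzymes that load each transfer RNA with its amino acid, were described in mouse regulatory T cells, a CD4+ lineage known for holding other immune cells in check. The 36 genes were picked by name, through the GENCODE mouse release 21 name of each gene ID, out of 50600 genes counted. They comprise 20 cytosolic enzymes and 16 mitochondrial enzymes, the second group being those whose names end in 2, with the exception of Tarsl2, a second cytosolic threonyl enzyme. RNA-seq was done on primary cells of the C57BL/6NJ strain in 4 libraries, which form a single group numbered as biological replicates 1 to 4. All 4 carry the same donor identifier, with sex and age not recorded. A protocol for differentiating CD4+ T cells is linked, and output names in the file headers include activated and 24h. The assay is called total RNA-seq while the linked library protocol is named for polyA+ RNA. With no second condition, comparisons were made between genes within a library, or between libraries. The labels do not say whether the replicates came from separate animals or cultures, so the p-values speak only to the spread between these libraries. The levels of Xist and Ddx3y given below set replicates 1 and 2 apart from replicates 3 and 4, which those 2 genes do not do within 1 animal, and within each of these pairs the spread may be technical.

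As background, protein synthesis in a mammalian cell runs in the cytosol and, separately, inside mitochondria, and most amino acids have a nuclear gene for an enzyme in each place. Several of the cytosolic enzymes sit together in a multi-synthetase complex held by scaffold proteins, and all synthetases fall into either class I or class II by the fold of their catalytic core. When amino acids run short, uncharged transfer RNA activates the kinase encoded by Eif2ak4, which raises translation of the transcription factor Atf4, and several cytosolic synthetase genes are known targets of Atf4. Activated T cells grow quickly and are known for a high rate of protein synthesis.

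The libraries held 38590127, 44357436, 48312918 and 93035969 fragments assigned to genes in replicates 1 to 4. Replicate 1 stood apart: 88.2% of its TPM (fragments per length of gene, scaled to a common total per library) lay in protein-coding genes, against 95.6% to 96.6% in the other libraries, and Gm42418, which RefSeq lists under the name Rn18s-rs5 as a ribosomal RNA pseudogene, stood at 35490 TPM there and at 1324 to 3197 TPM elsewhere. Replicates 1 and 2 had Xist at 100 and 88.7 TPM and Ddx3y under 1 TPM, while replicates 3 and 4 had Xist under 1 TPM and Ddx3y at 46.1 and 40.6 TPM, a split between libraries that share 1 donor identifier. All 6 T cell markers were above 100 TPM, as were 5 of 6 regulatory T cell markers, Foxp3 among them at 109 ± 14.5 TPM (SD, n = 4), with Ikzf2 the exception at 4.32 ± 0.788 TPM. Of 19 markers of other cell types 6 reached 1 TPM, with Cd8b1 the highest at 21.8 ± 4.19 TPM, and 6, such as Lyz2, S100a8 and Ncr1, were at 0 in every library. The 19 markers together summed to 23.5 to 34.5 TPM per library. A count of 0 allows up to 3 fragments, or 0.0777 to 0.0322 CPM (fragments scaled to the library's total) from replicate 1 to replicate 4. In bulk RNA, fewer cells of a type and less RNA per cell cannot be told apart.

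RNA of every one of the 36 synthetase genes was detected in every library. All had a mean of at least 1 TPM, 34 had at least 10 TPM and 17 had at least 100 TPM. The median member stood at 93.4 TPM, against 32.6 TPM for the 10095 protein-coding genes with at least 1 TPM in every library. The lowest fragment count of any member in any library was 539, for Wars2 in replicate 1, so counting alone gives a coefficient of variation (CV, SD over mean) of at most 4.31%.

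The cytosolic enzymes had a median of 172 TPM, and 16 of the 20 exceeded 100 TPM. In each library the median of the 20 lay at 155, 182, 176 and 175 TPM from replicate 1 to replicate 4. Together they took 0.418 ± 0.0195% of all TPM (SD, n = 4). The 3 highest were the valyl, glycyl and asparaginyl enzymes. Vars, which charges valine transfer RNA (ENSMUSG00000007029.16, chromosome 17, 35000987 to 35016322 on the plus strand, mm10), had 470, 436, 465 and 503 TPM in replicates 1 to 4. Gars, the glycyl enzyme whose single gene serves both cytosol and mitochondria (ENSMUSG00000029777.10, chromosome 6, 55038007 to 55079500, plus strand), had 425, 471, 447 and 478 TPM. Nars, the asparaginyl enzyme (ENSMUSG00000024587.9, chromosome 18, 64499665 to 64516557, minus strand), had 419, 450, 485 and 457 TPM. The ranges of these 3 overlapped, and their means of 468 ± 27.8, 455 ± 24 and 453 ± 27.4 TPM could not be ordered beyond the spread between libraries. Hars, the histidyl enzyme, followed at 329, 348, 347 and 355 TPM, with its whole range under that of Nars. Kars, the lysyl enzyme and the other gene that serves both compartments, had 280, 323, 318 and 333 TPM and was under Hars in all 4 libraries, although the ranges overlapped.

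At the low end, Tarsl2 stood far under every other cytosolic member. Its 8.27, 11.2, 11.7 and 9.92 TPM gave a mean of 10.3 ± 1.52 TPM, against 258 ± 10.7 TPM for Tars, the main threonyl enzyme of the cytosol. Tars exceeded Tarsl2 by 4.53 ± 0.15 on the log2(TPM + 1) scale in the mean, a ratio of 22.7 to 29.2 across the libraries with exon union lengths. With principal transcript lengths Tars had 123 ± 1.08 TPM and Tarsl2 15.7 ± 1.82 TPM, a smaller gap in the same direction. Cars, the cysteinyl enzyme, had 55.5, 56.4, 60.1 and 59.1 TPM and was the next lowest. Eprs, a fused protein that charges both glutamate and proline transfer RNA, had 83.5, 94.7, 94.4 and 93.8 TPM, and replicate 1 was the low library. Its place at the low end depends on the length used. With principal transcript lengths it had 246 ± 4.52 TPM, above the cytosolic median of 192 TPM. In the order of the 20 means with exon union lengths, 6 of the 19 steps between neighbours had ranges that did not overlap: Nars over Hars, Tars over Rars, Farsb over Sars, Aars over Qars, Eprs over Cars and Cars over Tarsl2. With principal transcript lengths Tars, at 123 ± 1.08 TPM, was instead under Rars, at 228 ± 9.42 TPM. Likewise Aars, at 144 ± 7.03 TPM, was under Qars, at 176 ± 4.88 TPM. The remaining cytosolic members ran from 95.1 ± 4.46 TPM for the tyrosyl gene Yars to 266 ± 18.1 TPM for the isoleucyl gene Iars.

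**Figure D1:**
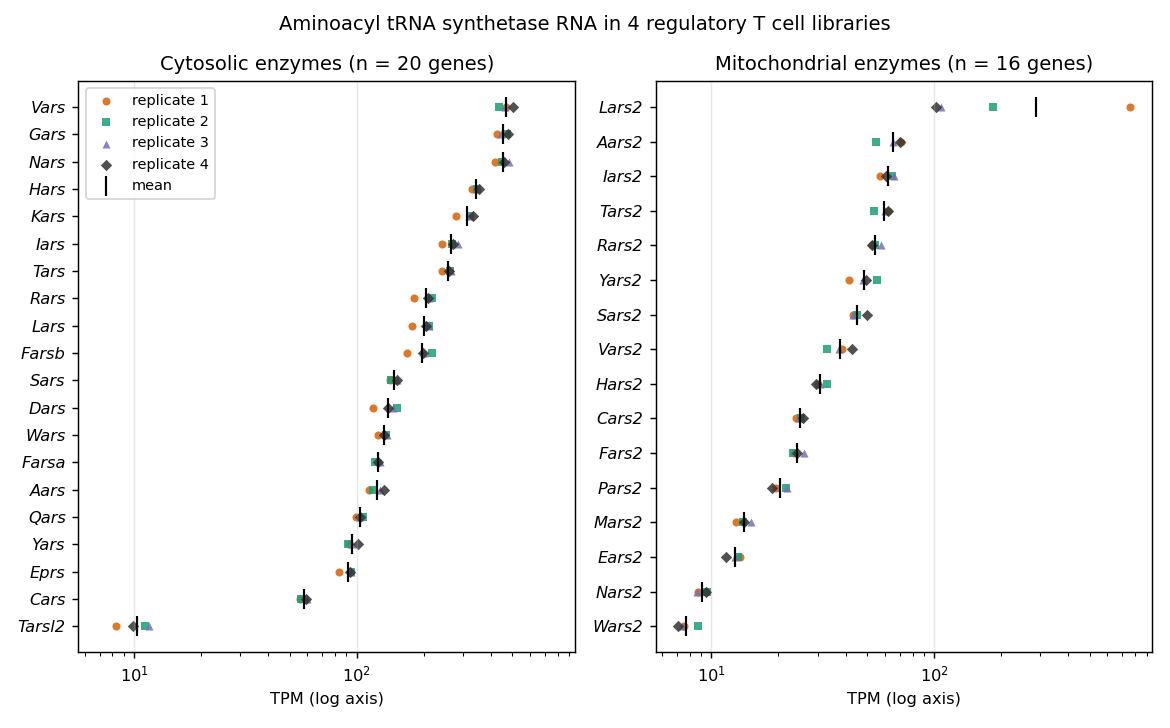
TPM of each synthetase gene on a log axis, cytosolic enzymes in the left panel and mitochondrial enzymes in the right, with 1 point per library and a bar at the mean of 4 libraries. The cytosolic genes run from 10.3 to 468 TPM, and Lars2 is the only gene whose points lie far apart, with replicate 1 at 757 TPM.

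Subunits and complex partners differed in level. Phenylalanyl synthetase is a tetramer of 2 chains, and the gene of the beta chain, Farsb, had 169, 218, 201 and 198 TPM, against 125, 121, 127 and 125 TPM for that of the alpha chain, Farsa. Farsb was higher in all 4 libraries, by 0.65 ± 0.17 on the log2(TPM + 1) scale, and the ranges did not overlap. With the length of the principal transcript in place of the exon union the order turned round, to 184 ± 13.2 TPM for Farsb and 225 ± 11.4 TPM for Farsa, so the order of the 2 chains depends on the length used. The 7 members of the multi-synthetase complex (Eprs, Iars, Lars, Qars, Rars, Kars and Dars) had a median of 201 TPM and spanned 91.6 to 314 TPM, against a median of 147 TPM for the 13 cytosolic members outside it. All 7 were lowest in replicate 1, as were 10 of the 13 outside it, and when TPM was scaled over protein-coding genes alone 6 of the 7 still were, against 2 of the 13. On that scale 1 of the 3 scaffold genes was lowest there. Mars, a complex gene outside the member list, was not. The share over all expressed genes was not computed, so the counts have no background to be read against. By catalytic class, the 8 cytosolic class I genes had a median of 167 TPM and the 11 class II genes one of 197 TPM, with Eprs in both classes.

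The promoters of some cytosolic genes hold the sequence through which Atf4 and related factors are known to act, so that these stretches are shown. The RefSeq promoter table (GRCm38.p6, 250 bases before to 50 after each start) had an entry for 27 of the 36 members. Missing were Cars, Hars, Hars2, Lars, Nars, Pars2, Rars, Vars and Wars. The core of the C/EBP-ATF response element, TGATGNAA searched on both strands, occurred in 5 of 13 cytosolic promoters (38.5%) and in 0 of 14 mitochondrial ones, against 4.51% of all 27025 genes with an entry and 2.57% of the 8095 among them that are protein-coding with at least 1 TPM in every library. Each line gives 30 bases in the direction of transcription around the match nearest the start of that gene, with the match in capitals. Aars (chr8:111033840-111033869, plus) has it from base 10 of the transcript. Gars (chr6:55037960-55037989, plus) has it 30 bases before the start and Tars (chr15:11399655-11399684, minus) 15 bases before it. Iars (chr13:49682126-49682155, plus) has it from base 8 and Yars (chr4:129189895-129189924, plus) from base 4 of the transcript.
Aars: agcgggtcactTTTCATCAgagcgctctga
Gars: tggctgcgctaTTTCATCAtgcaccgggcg
Iars: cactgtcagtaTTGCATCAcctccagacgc
Tars: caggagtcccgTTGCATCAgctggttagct
Yars: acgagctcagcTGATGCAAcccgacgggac

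Of the 5 matches shown 4 lie on the opposite strand, as TTNCATCA, and that of Yars reads TGATGCAA forward. The 5 genes with a match had a median of 258 TPM and a range of 95.1 to 455 TPM, against 131 TPM and 10.3 to 314 TPM for the 8 cytosolic genes with an entry and no match, so that the ranges overlapped. With principal transcript lengths the order of the medians turned round, to 144 TPM with a match and 192 TPM without, so neither set can be called the higher. A match describes letters only, and binding of a factor was not measured here.

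The mitochondrial enzymes were lower, with a median of 34.4 TPM. Lars2 was the only one of 16 above 100 TPM, and without it the other 15 had a median of 30.8 TPM and no mean above 65.4 TPM. Those 15 summed to 505, 509, 525 and 528 TPM in replicates 1 to 4, and the sum with Lars2 was 1262, 691, 631 and 630 TPM. After Lars2 came Aars2, the alanyl enzyme, at 71.2, 54.9, 65.4 and 70.1 TPM, with replicate 2 the low library. Iars2, the isoleucyl enzyme, had 56.9, 64.7, 65.8 and 60.5 TPM. Tars2, the threonyl enzyme, had 61.8, 53.7, 60.3 and 62.2 TPM. The ranges of these 3 overlapped one another and that of Rars2, the arginyl enzyme, at 52.5, 54.3, 57.6 and 52.8 TPM.

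The 3 lowest means among mitochondrial members with exon union lengths were those for glutamate, asparagine and tryptophan. Ears2, the glutamyl enzyme, which also charges the mitochondrial glutamine transfer RNA with glutamate, had 13.4, 13.1, 12.7 and 11.6 TPM. Nars2, the asparaginyl enzyme (ENSMUSG00000018995.12, chromosome 7, 96951505 to 97064758, plus strand), had 8.74, 9.54, 8.63 and 9.48 TPM. Wars2, the tryptophanyl enzyme (ENSMUSG00000004233.14, chromosome 3, 99141068 to 99239186, plus strand), had 7.5, 8.74, 7.35 and 7.11 TPM. Nars2 was above Wars2 in all 4 libraries, while their ranges overlapped, and Ears2 lay wholly above both but overlapped Mars2. The members between ran from 14.0 ± 0.892 TPM for the methionyl gene Mars2 to 48.6 ± 5.63 TPM for the tyrosyl gene Yars2. In the order of the 16 means with exon union lengths 6 of 15 steps between neighbours had ranges that did not overlap: Lars2 over Aars2, Sars2 over Vars2, Hars2 over Cars2, Fars2 over Pars2, Pars2 over Mars2 and Ears2 over Nars2. With principal transcript lengths Hars2, at 28.8 ± 1.59 TPM, was instead under Cars2, at 68.9 ± 1.62 TPM. Likewise Fars2, at 17.6 ± 0.844 TPM, was under Pars2, at 21 ± 1.45 TPM. Hars and Hars2 are neighbours on chromosome 18, head to head on opposite strands, and overlap by 198 bases in the deposited coordinates. They stood at 345 ± 11.5 TPM and 30.8 ± 1.51 TPM, and the counting used strand.

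Set side by side, the median cytosolic gene exceeded the median mitochondrial gene in every library. The difference of medians of log2(TPM + 1) was 2.15, 2.41, 2.33 and 2.26 in replicates 1 to 4, a mean of 2.29 ± 0.11 (SD, n = 4) from 7.42 ± 0.09 for cytosolic and 5.13 ± 0.04 for mitochondrial genes. With exon union lengths 18 of the 20 cytosolic genes had a higher mean than the highest mitochondrial gene other than Lars2. The other 2 were Cars, whose 57.8 TPM was exceeded by 4 mitochondrial genes (Lars2, Aars2, Iars2 and Tars2), and Tarsl2. With principal transcript lengths the highest after Lars2 was Tars2, at 125 ± 11.4 TPM. Under it lay Tars at 123 ± 1.08 TPM, within the spread, Cars at 85.8 ± 2.46 TPM and Tarsl2 at 15.7 ± 1.82 TPM. The summed TPM of the cytosolic genes was 3.09, 6.12, 6.79 and 6.85 times that of the mitochondrial genes in replicates 1 to 4, with replicate 1, where Lars2 was high, the low library. Within a compartment the ratio of the highest to the lowest mean was 8.11 for cytosolic genes without Tarsl2 and 8.53 for mitochondrial genes without Lars2.

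For 15 amino acids both a cytosolic and a mitochondrial gene are members, and for 14 of them the cytosolic gene was higher in every library. Asparagine had the widest gap, with Nars over Nars2 by 5.43, 5.42, 5.66 and 5.45 on the log2(TPM + 1) scale, a mean of 5.49 ± 0.11 and a mean TPM ratio of 49.9. Tryptophan followed, with Wars over Wars2 by 3.90, 3.81, 4.05 and 4.04, a mean of 3.95 ± 0.12 and a ratio of 17.4. Valine came next, with Vars over Vars2 by 3.57, 3.69, 3.60 and 3.53, a mean of 3.60 ± 0.07 and a ratio of 12.4. These 3 gaps did not overlap one another with exon union lengths. The asparagine and valine gaps paired 2 of the 3 highest cytosolic genes with mitochondrial genes of low or middling level, whereas the tryptophan gap rested on Wars2, the lowest of all 36 members.

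The narrowest gaps with exon union lengths were those of tyrosine, alanine and leucine. Yars exceeded Yars2 by 1.13, 0.72, 0.98 and 1.01, a mean of 0.96 ± 0.17 and a ratio of 1.98. Aars exceeded Aars2 by 0.68, 1.08, 0.95 and 0.92, a mean of 0.91 ± 0.17 and a ratio of 1.90. For leucine, Lars minus Lars2 was -2.08, 0.21, 0.98 and 1.00, with a mean of 0.03 ± 1.45, so that replicate 1 alone had the mitochondrial gene higher. Without replicate 1 the leucine mean was 0.73 ± 0.45, and the cytosolic gene was higher for all 15 amino acids. The tyrosine and alanine gaps overlapped. The other amino acids lay between 1.18 ± 0.05 for cysteine and 3.44 ± 0.08 for histidine, and 12 of the 15 differed by at least 1 in every library. By exact sign-flip permutation over the 4 libraries (two-sided) each of the 14 had p = 0.125 (adjusted p = 0.134 over the 15 amino acids), the smallest p that 4 libraries allow since 2 of 16 sign patterns reach it, and leucine had p = 1. No p under 0.05 was therefore possible.

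**Figure D2:**
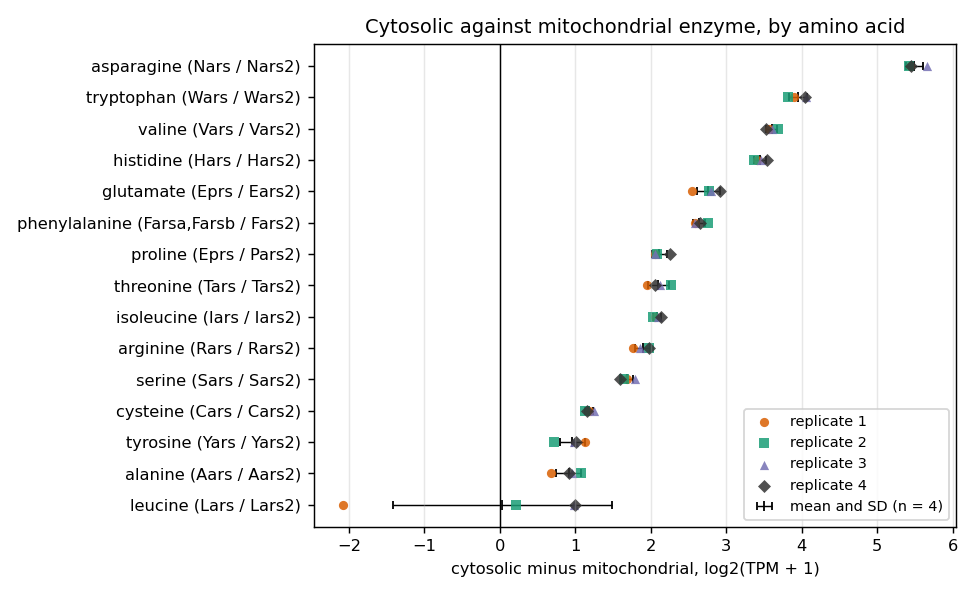
Difference of log2(TPM + 1), cytosolic minus mitochondrial, for 15 amino acids, with 1 point per library and the mean and SD of 4 libraries. Asparagine lies highest at 5.49, and leucine is the only amino acid with a point below 0, replicate 1 at -2.08.

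Mars, the cytosolic methionyl enzyme and a member of the complex, is a synthetase outside the list of 36 that pairs with a member. It had 366 ± 13.4 TPM and exceeded Mars2 by 4.62 ± 0.07 on the log2(TPM + 1) scale.

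Lars2, the mitochondrial leucyl enzyme (ENSMUSG00000035202.8, chromosome 9, 123366927 to 123462666, plus strand), was the member with the widest spread between libraries. It had 757, 183, 107 and 102 TPM in replicates 1 to 4, from 101494, 26898, 16604 and 31055 fragments. Replicate 1 stood at 5.81 times the mean of the other libraries, and no other member had a library set apart to that degree. As a share of all fragments Lars2 took 0.263% in replicate 1 (exact binomial interval at 95%, 0.2614% to 0.2646%), 0.0606% in replicate 2 (0.05992% to 0.06137%), 0.0344% in replicate 3 (0.03385% to 0.03489%) and 0.0334% in replicate 4 (0.03301% to 0.03375%). No pair of these intervals overlapped, although those of replicates 3 and 4 lay close together. Such intervals cover counting error only. Even in its 2 lowest libraries Lars2 was above every other mitochondrial gene.

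Gm42418, the ribosomal RNA pseudogene, and a pair of further loci listed with it had the same order of replicate 1 over replicate 2 over the other two libraries. Gm42418 had 35490, 3197, 1324 and 1606 TPM, Gm26917 had 1389, 523, 221 and 287 TPM, and Gm15564 had 132, 30.4, 13.5 and 9.63 TPM. Replicate 1 exceeded the mean of the other libraries 17.4 times for Gm42418, 4.04 times for Gm26917 and 7.37 times for Gm15564, so the ratio was not the same for the 4 loci. The TPM of Gm42418 was 46.9 times that of Lars2 in replicate 1 and 12.4 to 17.5 times in the others. Lars, the cytosolic leucyl enzyme, did not follow this order, with 178, 211, 212 and 204 TPM, and neither did Aars2. Ears2 did follow it, over a much narrower range of 13.4, 13.1, 12.7 and 11.6 TPM. So did some listed genes, such as Asns at 19.4, 19.2, 17 and 17.1 TPM. The order alone is thus not particular to Lars2 and these loci. What part of the Lars2 counts comes from the Lars2 messenger RNA was not tested, since the files hold 1 count for the whole gene.

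**Figure D3:**
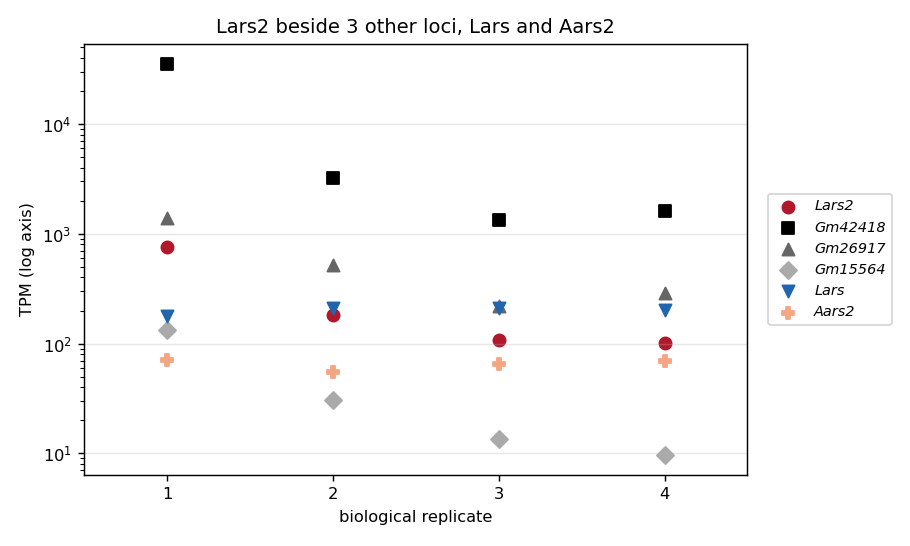
TPM on a log axis in each of the 4 biological replicates for Lars2, for the loci Gm42418, Gm26917 and Gm15564, and for Lars and Aars2. Lars2 and the 3 loci are highest in replicate 1, where Lars2 is at 757 TPM against 107 and 102 TPM in replicates 3 and 4, while Lars lies between 178 and 212 TPM in all 4.

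The sequences of Lars2 and Gm15564 share a stretch, which is shown because both were highest in replicate 1. The longest shared stretch was sought for Gm15564 alone, not for Gm42418 or Gm26917. Whether it bears on the counts was not tested. The transcripts of both genes hold the same 52 bases on the same strand. In Lars2 it lies at chr9:123462048-123462099 (GRCm38, plus strand), in exon 21 of 21, within the 986 bases of the 3′UTR and 370 bases after the stop codon, and it makes up 0.469% of the exon union. The first 22 shared bases are in capitals below, in the Lars2 window chr9:123462040-123462069 and in the spliced transcript of Gm15564, a gene on chromosome 16.
Lars2: gtgaagcaGAATTCACCAAGCGTTGGATTG
Gm15564: tctcacatGAATTCACCAAGCGTTGGATTG

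Most members shared little transcript sequence with other genes. The median member had 0.416% of its 31-base words in a transcript of another gene on the same strand, 10 members had none, and Lars2 had 0.869%. The gene sharing the most of these words with Lars2 was Gm47414, with 38. Over 10% was reached by Iars, at 14.7% and mostly with Gm4849, and by Aars, at 13.9% and mostly with Exosc6. Exosc6 also overlaps the Aars exons on the same strand over 1326 bases, or 14.3% of their length, and Tarsl2 overlaps Tm2d3 over 120 bases, or 1.78%. The command lines do not ask for fragments that overlap 2 genes or map to several places, so fragments in such stretches can go uncounted. The effect on the levels of Aars and Iars was not tested.

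A test of variability across the whole table set each gene's spread between libraries against that of genes of like abundance. It was edgeR's quasi-likelihood dispersion with Benjamini-Hochberg adjustment, and it called 58 of 12396 genes tested (0.468%) at an adjusted p under 0.05. All 36 synthetases passed the filter on low counts, and the test called 1 of them, Lars2, at an adjusted p of 3.71e-18 with a dispersion 448 times the trend. By p it ranked 3 among all genes tested, after Gm42418 and Xist. At an unadjusted p under 0.05 there were 4 members (11.1%), against 5.33% of all genes. Besides Lars2 these were Aars2, Vars2 (the valyl enzyme) and Tars2, whose edgeR p-values over the 4 libraries were 0.00867, 0.0307 and 0.0453 unadjusted and 0.635, 0.871 and 0.926 adjusted. Vars2 had 38.6, 32.9, 37.5 and 42.6 TPM. All 3 were lowest in replicate 2, and none passed the adjusted threshold.

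No member other than Lars2 passed the adjusted threshold. In simulated data the test recovered 19 of 50 genes changed 1.5-fold in 1 library and 42 of 50 changed 2-fold. Small changes can therefore be missed. The median dispersion relative to the trend was 0.588 over the 36 members, against 0.809 over all genes tested, and 24 members (66.7%) lay under 1, against 59.4% of all genes. Their median CV of TPM was 6.24%, or 5.92% for cytosolic and 6.64% for mitochondrial genes, against 7.95% for the 10095 expressed protein-coding genes. The CV was not matched for level, and the members stood higher, with a median of 93.4 TPM against 32.6 TPM. Farsa had the lowest CV at 2.01%, followed by Qars, the glutaminyl enzyme, at 2.94% and Cars2, the mitochondrial cysteinyl enzyme, at 3.30%. The highest after Lars2 were Tarsl2 at 14.8%, Yars2 at 11.6% with 41.5, 55.2, 47.8 and 49.6 TPM, and Aars2 at 11.3%. Lars2 itself had a CV of 110%, and one of 34.8% without replicate 1, when it was still called at the adjusted threshold.

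**Figure D4:**
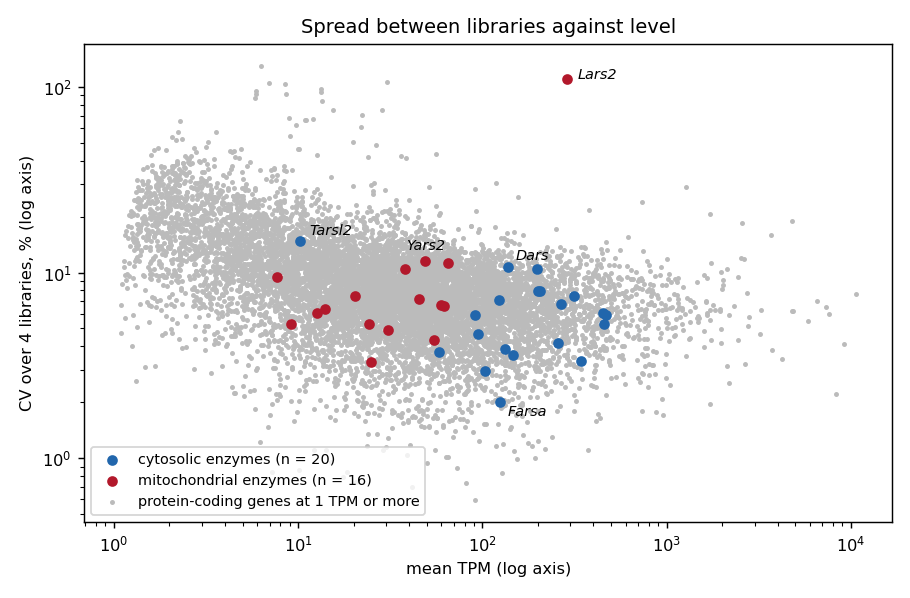
CV of TPM over 4 libraries against mean TPM, both on log axes, for cytosolic and mitochondrial enzymes over all protein-coding genes with at least 1 TPM in every library. Lars2 stands alone at a CV of 110%, and the other enzymes lie between 2.01% and 14.8%.

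Replicate 1 was the lowest library for 17 of 20 cytosolic genes and for 5 of 16 mitochondrial genes in TPM. The median of the 10095 expressed protein-coding genes was also lowest there, at 30.4 TPM against 32.7, 33.8 and 32.8 TPM in replicates 2 to 4. A low replicate 1 in TPM is therefore not particular to the synthetases. With TPM scaled over protein-coding genes alone the counts were 8 of 20 and 1 of 16. The share over all expressed genes was not computed on either scale. Replicate 1 is the library in which the share of TPM outside protein-coding genes was largest, as given above.

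The gene length used moved the means of several members. The deposited length is the union of all annotated exons, and the length of the APPRIS principal transcript, with TPM over protein-coding genes alone, was an alternative added after the data were seen. The change of length moved the median of 10091 expressed protein-coding genes by -0.19 on the log2 scale, a ratio of 0.874, and the members' ratios are given relative to it. On that footing 13 of the 36 means stood over 1.5 times higher and 1 lower by as much, against 23.3% of the 10091 genes past this size in either direction. Cars2 stood 2.98 times higher at 68.9 ± 1.62 TPM, with a transcript of 1902 bases in place of an exon union of 7237 bases. Eprs stood 2.89 times higher at 246 ± 4.52 TPM, with 4906 in place of 18102 bases. Tars was the lower one, at 0.516 times its level or 123 ± 1.08 TPM, with a principal transcript of 4005 bases against a deposited union of 2636 bases. The medians were 192 TPM for cytosolic and 40.9 TPM for mitochondrial genes on this scale. Kars then ranked 1 and Vars 2 among the cytosolic genes, and the cytosolic gene was higher in every library for 13 of 15 amino acids. The exceptions were leucine, at -1.52 ± 1.46, and threonine, at -0.02 ± 0.14, where the sign differed between libraries. The 3 lowest differences were then those of leucine, threonine and cysteine, the last at 0.31 ± 0.05, while alanine stood at 1.59 ± 0.17 and tyrosine at 1.00 ± 0.18. Asparagine again had the widest gap, at 4.58 ± 0.11, a ratio of 25.9, and overlapped tryptophan at 4.43 ± 0.11. Among mitochondrial genes Ears2 stood at 23.3 ± 2.26 TPM and was no longer among the 3 lowest, which were Wars2, Mars2 and Nars2.

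**Figure D5:**
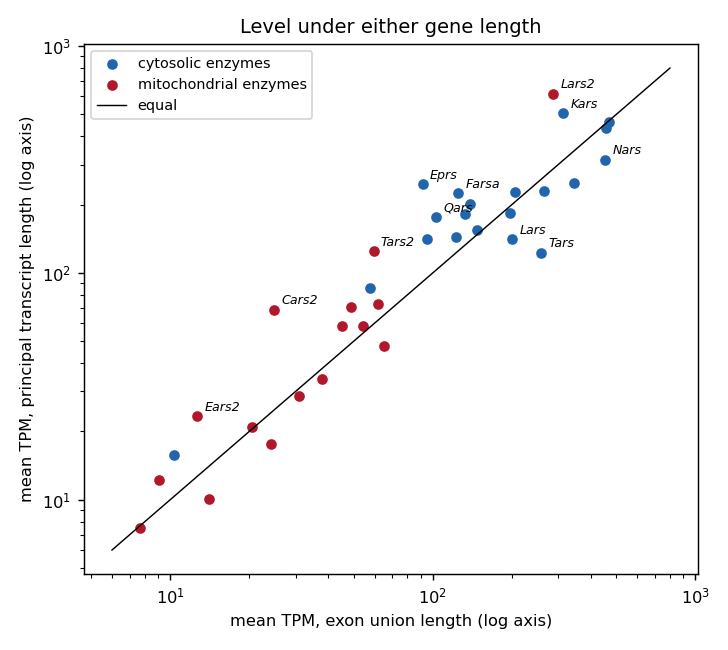
Mean TPM of each enzyme computed with the principal transcript length against that with the exon union length, both on log axes, with the line of equality. Cars2 and Eprs lie furthest above the line at 68.9 and 246 TPM, and Tars furthest below it at 123 TPM.

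Partners of the synthetases were expressed as well. Of the complex's scaffold genes, Aimp2 had 215 ± 15.9 TPM, Eef1e1 357 ± 43.7 TPM and Aimp1 48.5 ± 4.82 TPM with exon union lengths. With principal transcript lengths Aimp2 had 218 ± 17.1 TPM, Eef1e1 105 ± 9.1 TPM and Aimp1 175 ± 14.5 TPM, so the order of the 3 depends on the length used. Mitochondria lack a glutaminyl synthetase and convert the misloaded glutamate with an amidotransferase, whose subunit genes Gatc, Qrsl1 and Gatb had 38.9 ± 1.44, 24.1 ± 2.21 and 17.8 ± 1.66 TPM, above the 12.7 ± 0.773 TPM of Ears2. With principal transcript lengths Gatb, at 16 ± 0.902 TPM, was instead under Ears2, at 23.3 ± 2.26 TPM. Mtfmt, which formylates the initiator methionine, had 18 ± 1.42 TPM. Of the genes that remove wrongly attached amino acids, Dtd1 had 59.6 ± 2.56 TPM, Dtd2 10.1 ± 1.47 TPM and Aarsd1 5.15 ± 1.05 TPM. The elongation factors that carry charged transfer RNA to the ribosome stood at 10619 ± 817 TPM for the cytosolic Eef1a1 and 198 ± 16.8 TPM for the mitochondrial Tufm. Among genes that maintain and read the mitochondrial genome, Tfam had 59.4 ± 6.39 TPM and Polrmt 52.1 ± 4.96 TPM, and the mitochondrial ribosomal protein genes Mrpl12 and Mrps12 had 533 ± 14.7 and 179 ± 7.74 TPM. The test of variability called none of these genes.

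The 12 genes listed for the integrated stress response and amino acid supply spanned a wide range of levels. Their median was 48.6 TPM, with 11 at 1 TPM or more and 5 at 100 TPM or more. The 5 were Atf4 at 707 ± 34.6 TPM, the serine synthesis genes Phgdh at 571 ± 22.9 TPM and Psat1 at 295 ± 14.5 TPM, and the chains of the large neutral amino acid transporter, Slc7a5 at 467 ± 10.2 TPM and Slc3a2 at 200 ± 11.1 TPM. Asns, the asparagine synthetase gene, had 18.2 ± 1.32 TPM, Ddit3 6.41 ± 0.48 TPM, Trib3 6.61 ± 1.36 TPM and Chac1 2.27 ± 0.672 TPM. Known Atf4 targets are found among the high genes (Phgdh, Psat1, Slc7a5 and Slc3a2) and among the low ones (Asns, Ddit3, Trib3 and Chac1). Eif2ak4, the kinase that senses uncharged transfer RNA, had 27.8 ± 2.00 TPM, and Sesn2, a leucine sensor, 69.5 ± 7.97 TPM. Slc7a11, the cystine transporter, was at 0 to 0.0287 TPM. Of the 11 with a promoter entry 4 held TGATGNAA, namely Asns, Chac1, Slc7a11 and Trib3. Slc7a11 did not pass the filter on low counts, and none of the 11 tested was called variable between libraries.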

How the data were processed

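The deposited values are raw fragment counts per gene, not scaled, which the authors made with featureCounts; per the file headers the version was 1.4.6-p4. Counting took read pairs with both ends mapped, summed exons to genes in GENCODE mouse release 13 and used strand setting 2, per the file headers, with mm10 as the assembly, per the labels. The command lines do not ask for fragments that map to several places or overlap 2 genes, so genes with near-identical copies can be undercounted. The name of the aligner was not given in the sources used here. The deposited tables also hold the exon union length of each gene. Coordinates are as deposited, counted from 1, except where GRCm38 is named with a sequence.

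TPM was computed from counts and exon union lengths. Names came from GENCODE release 21 by ID, with 50376 of 50600 IDs matched. The total was 38590127, 44357436, 48312918 and 93035969 fragments in replicates 1 to 4. Intervals are 95% exact binomial, and intervals and floors (3 fragments) cover counting error only. Levels were compared within each library as log2(TPM + 1), with exact sign-flip permutation tests. Variability was tested with edgeR 4.0.16 in R 4.3.3 on the deposited counts (filterByExpr, TMM, a quasi-likelihood fit of the intercept alone, a robust prior, the F test of each gene's dispersion against that prior in its upper tail, Benjamini-Hochberg over all genes tested), with DESeq2 1.42.0 as an alternative. The test was checked on simulated data with 1 library changed. It recovered 19, 42, 49 and 50 of 50 genes changed 1.5, 2, 4 and 8-fold, with 1 false call. Promoters came from RefSeq GRCm38.p6, and shared words of 31 bases from GENCODE release 21 transcripts. Protein sequences were not used here. Some genes and sequences that the naming rule covers are not reported here.

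Members and gene lists were chosen with earlier results of these data known. All 36 members are named. Described in full are the 5 highest and 3 lowest of each compartment, those past the variability threshold, the 3 widest and 3 narrowest amino acid pairs, Lars2, Tarsl2, Farsa and Farsb. Other genes come from lists of the complex's scaffold, related enzymes, the stress response and cell type markers. Xist and Ddx3y, the Vars2 and Yars2 values, and the members with extreme spread or length were chosen after their values were seen. Alternatives were other pseudocounts, scalings, lengths, list memberships, filters and priors, and leaving out each replicate.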

Additional observations from a re-analysis of the deposited data

Results flagged for a closer look

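Among 111 values tested over the 4 libraries (levels of members and listed genes, and the amino acid differences), 10 had 1 library set apart from the other three by more than Dixon's 95% critical value. Chance gives about 1 in 20. No explanation was weighed for any of them.

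Of the 36 members 2 were in this position. Lars2 had 757 TPM in replicate 1, against 102 to 183 TPM in the other libraries. Eprs had 83.5 TPM in replicate 1, against 93.8 to 94.7 TPM in the others. With TPM scaled over protein-coding genes alone the number of members was 4. These need not include Eprs, which had 97.2 ± 1.83 TPM on that scale, against 91.6 ± 5.41 TPM over all genes (SD, n = 4).

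In TPM over all genes, replicate 1 was also the library set apart for 4 other genes. Gm42418 had 35490 TPM there, against 1324 to 3197 TPM elsewhere, and Gm15564 had 132 TPM, against 9.63 to 30.4 TPM. Trib3 had 8.64 TPM in replicate 1, against 5.8 to 6.03 TPM. Eef1a1 was low at 9398 TPM, against 10942 to 11104 TPM.

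Replicate 2 was set apart for 2 markers of other cell types near the floor: Ms4a1, a B cell marker, at 0.146 TPM against 0.0134 to 0.0352 TPM, and Cd14, a monocyte marker, at 0.287 TPM against 0 TPM. The asparagine difference was 5.66 in replicate 3, against 5.42 to 5.45, and the proline difference, Eprs over Pars2, was 2.26 in replicate 4, against 2.05 to 2.08, both on the log2(TPM + 1) scale.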

How the results depend on the processing

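The difference of compartment medians kept its direction in every setting tried. Leaving out a replicate or scaling whole libraries could not reverse it, as it was above 0 in every library. It was 2.62 with Tarsl2 counted as mitochondrial, 2.43 without Lars2 and 2.04 without Gars and Kars, against 2.29 as reported, and 2.24 to 2.33 when a replicate was left out. The count of amino acids with the cytosolic gene higher in every library ranged from 14 to 15 when a replicate was left out, was 13 with principal transcript lengths (an alternative chosen after seeing the data), and 12 for a difference of at least 1. For leucine the difference reversed to -1.52 with principal transcript lengths and lay between -0.30 and 0.73 when a replicate was left out (-0.03 without replicate 2, -0.29 without replicate 3), and for threonine it reversed to -0.02 with principal transcript lengths. Of the amino acid values under alternatives 115 kept their direction and 5 reversed. Most of the 115 were fixed in advance. A pseudocount or a scaling of the whole library keeps the sign within a library. Leaving out a replicate cannot reverse the 14 amino acids that were positive in every library. Only principal transcript lengths, and leucine in other settings, left room for a reversal. Of the 36 levels 18 moved by more than the spread between libraries with TPM over protein-coding genes alone. That scaling raises all protein-coding genes of a library by the same factor. With principal transcript lengths 30 did, FPKM being on another scale for all genes. Principal lengths also move genes whose own length hardly changes. Aars2, with 3348 against 3349 bases, went from 65.4 to 47.7 TPM. These counts therefore include shifts common to all genes, and the share over all genes was not computed. The count was 0 when a replicate was left out. That was fixed in advance, as leaving out 1 of 4 libraries cannot shift a mean by that spread. Lars2 fell from 287 to 130 TPM without replicate 1 and still counted as not moved. The count of variable genes was 110 without a filter on low counts and 36 with a prior that is not robust, against 58, and 37 to 69 when a replicate was left out, the 37 being without replicate 1, with 31 shared. Among members the count was 1 in each of these settings, Lars2 each time, also with DESeq2's dispersion outliers, and 4 at an unadjusted p. The cause was not tested. No paired analysis was possible because the libraries form 1 group. Depth limits the lowest markers of other cell types, not the members.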
